A study of Mus musculus with 10 samples.

Results

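Border macrophages of the mouse brain that carried a single copy of the Mrc1-CreERT2 knock-in were compared with those of wild-type mice, to describe which transcripts a single copy left within a stated range of the wild-type level and how precisely this could be measured. The libraries were chosen by genotype, with 3 heterozygous libraries (genotype Mrc1-CreERT2/wt) and 3 wild-type libraries out of 10 in the series. The other 4 libraries came from mice with the allele on both chromosomes and shared the estimate of the spread. Of 53546 genes in the deposited table, 14023 had enough counts to be tested, and 1788 of these had a mean over 100 counts per 1000000 counts of a library (CPM) in the 6 libraries and are called abundant here. All animals were C57BL/6N mice of 6 to 8 weeks from a pathogen-free facility. None was treated, so no group had received an inducer of Cre. Each library was made from 500 pg of RNA of sorted cells of 1 mouse. How the cells were gated is not stated in the labels.

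Border macrophages, also called CNS-associated macrophages, live in the meninges, around vessels and in the choroid plexus, outside the tissue that microglia occupy. They take up proteins, lipids and debris through scavenger and lectin receptors and degrade them in lysosomes. Mrc1 encodes the mannose receptor CD206, an endocytic lectin that marks these cells and that microglia largely lack. CreERT2 is a Cre recombinase joined to a mutated ligand-binding part of the oestrogen receptor, which HSP90 chaperones hold outside the nucleus until tamoxifen binds. The allele, by its name, sits at Mrc1, and a heterozygous mouse keeps 1 unmodified Mrc1 allele.

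The sequence just ahead of Mrc1 is shown because, by the name of the allele, both the receptor and the recombinase would be transcribed at this locus. It covers the 250 bases before the annotated start at chr2:14229164-14229413 of GRCm38.p6, plus strand, from RefSeq. Capitals mark GAGGAA on either strand (TTCCTC as read here), the core bound by PU.1, a transcription factor of macrophages.
Mrc1: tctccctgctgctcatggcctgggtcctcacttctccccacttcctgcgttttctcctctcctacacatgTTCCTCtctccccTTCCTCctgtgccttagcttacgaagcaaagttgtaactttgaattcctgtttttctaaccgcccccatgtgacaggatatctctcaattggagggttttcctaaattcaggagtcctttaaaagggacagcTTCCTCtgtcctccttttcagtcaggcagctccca
The window held 3 matches. At least 1 match was found in 7639 of 32851 promoter windows of the same length (23.25%), and a match is a description, not a measured site.

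Library totals ran from 22986972 to 32326603 counts in heterozygous and from 28668839 to 32931690 in wild-type libraries, and the heterozygous library of replicate 4 was the smallest of the 6. Across abundant genes, 2 wild-type libraries differed from each other by a median of 0.28 to 0.32 on the log2 CPM scale, 2 heterozygous libraries by 0.20 to 0.26, and a heterozygous and a wild-type library by 0.23 to 0.28. Pairs of different genotype lay no further apart than pairs of wild-type mice. In every list of library values below, wild-type libraries come in the order of replicates 1, 2 and 3 and heterozygous libraries in the order 1, 2 and 4. Where nothing else is stated, fold changes are heterozygous against wild type on the log2 scale, with n = 3 libraries per genotype.

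The targeted gene was the abundant transcript with the smallest p. Mrc1 was at 3748, 3065 and 3631 CPM in wild-type and 1985, 2188 and 2286 CPM in heterozygous libraries. The groups did not overlap, and each heterozygous library lay below each wild-type library. The log2 fold change was -0.69 (SE 0.11, 95% interval -0.94 to -0.45), which is 61.8% of the wild-type level (95% interval 52.2% to 73.3%). It missed the threshold in edgeR (adjusted p = 0.30), while DESeq2, run as an alternative, called it (adjusted p = 2.47e-07). The exact permutation test, two-sided, gave p = 0.1, the smallest value that 3 against 3 libraries allow. The test for a level within 2-fold of wild type was missed narrowly (adjusted p = 0.053, edgeR fit). It was passed under 4 of 21 alternatives, namely DESeq2 (adjusted p = 0.016), limma-voom (0.023), the title letter as a covariate (0.027) and a stricter count filter (0.047). In a bulk sample, fewer cells of a type and less RNA per cell cannot be told apart. Esr1, the oestrogen receptor gene of the mouse itself, was at 30.4, 23.3 and 23.5 CPM in wild-type and 23.8, 28.5 and 46.1 CPM in heterozygous libraries. Its log2 fold change was 0.35 (SE 0.29). The groups overlapped, and replicate 4 of the heterozygous mice was the highest. Counts per gene leave unsaid which exons of Mrc1 or Esr1 were read.

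No other difference passed the threshold either. With edgeR, 0 of 14023 genes were called higher (0%) and 0 lower (0%) at an adjusted p under 0.05. An unadjusted p under 0.05 was reached by 816 genes (5.82%), 480 of them higher (3.42%) and 336 lower (2.40%), and 6885 genes (49.1%) were fitted below 0. Limma-voom also called 0 genes, whereas DESeq2 called 144 higher and 92 lower, 8 of them abundant. Since the absence of a call does not show that a level was kept, each gene was also tested for being kept: a gene is called held within 2-fold when 2 one-sided tests on its fold change both passed, with p adjusted over all genes, so that changes of 2-fold or more in either direction were rejected.

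Of the 1788 abundant genes, 1459 (81.6%) were held within 2-fold, and 0 were called as different (0%). On the 6 libraries alone, without the homozygous ones in the estimate of the spread, 1243 of 1790 were held. The median within-group SD of abundant genes was 0.19 on the log2 scale in homozygous, 0.26 in wild-type and 0.21 in heterozygous libraries. Counts of abundant list members held in the stated fit, given below, are to be read beside the 81.6%. Those under an alternative belong beside the total under the same alternative, given later in this paragraph. In the stated fit, an unadjusted p under 0.05 was reached by 116 abundant genes (6.49%), 61 higher (3.41%) and 55 lower (3.08%). The median abundant gene had a log2 fold change of 0.00, an SE of 0.19 and a 95% interval that reached 0.42 to either side, or 1.34-fold. Fitted values fell below 0 for 891 genes (49.8%), and the central 90% of them ran from -0.42 to 0.37. Only Klf10 and Ccn1, both fitted higher, had a fitted change beyond 2-fold. The whole unadjusted 95% interval lay within 1.25-fold for 93 abundant genes, within 1.5-fold for 867 and within 2-fold for 1635. The number held within 2-fold stayed between 1124 and 1660 under every alternative. Without heterozygous replicates 1, 2 and 4, it was 1124 of 1789, 1169 of 1794 and 1171 of 1795 abundant genes. Without wild-type replicates 1, 2 and 3, it was 1230 of 1784, 1210 of 1774 and 1227 of 1796. It was 1195 of 1788 under the replicate block, 1499 of 1788 with the title letter as a covariate and 1660 of 1788 with DESeq2. All 3 heterozygous libraries lay above all wild-type libraries for 78 abundant genes (4.36%) and below them for 100 (5.59%).

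**Figure D1:**
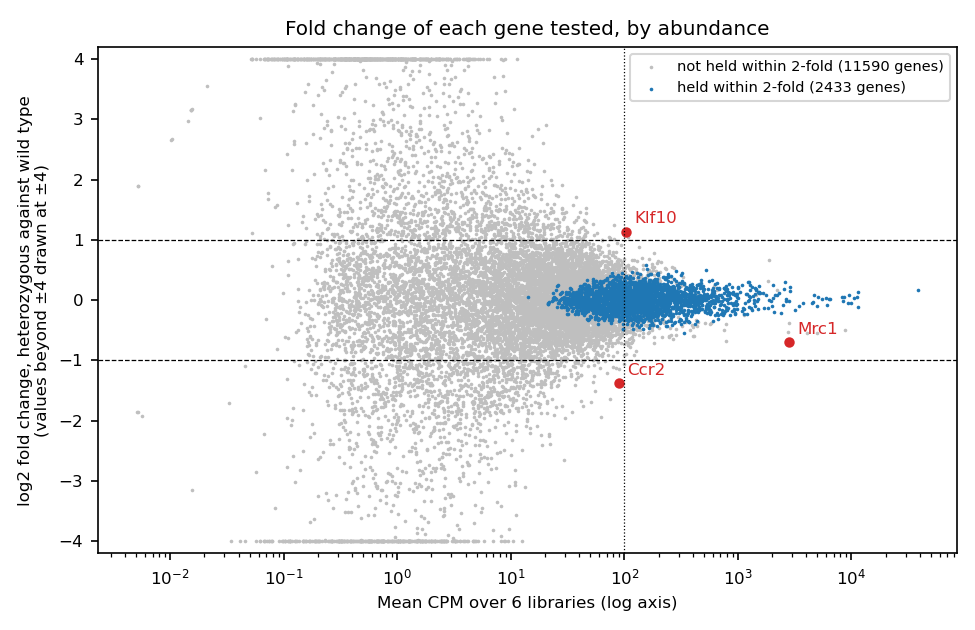
Mean CPM over the 6 libraries (log axis) against the log2 fold change of heterozygous over wild-type libraries, a point per gene tested; blue genes were held within 2-fold, dashed lines mark 2-fold and the dotted line 100 CPM. Right of the dotted line 1459 of 1788 genes were held, while Mrc1 (-0.69) was not.

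Precision rose with abundance. Among the 96 genes over 1000 CPM, which took 33.7% of all counts, 85 (88.5%) were held and the median interval reached 1.19-fold. Among the 1692 genes from 100 to 1000 CPM, 1374 (81.2%) were held, with a median reach of 1.35-fold. From 10 to 100 CPM, 974 of 6305 genes (15.4%) were held and the interval reached 1.92-fold. Under 10 CPM no gene was held: the interval reached 13.3-fold for the 3803 genes from 1 to 10 CPM and 34.6-fold for the 2127 genes below. The genes from 1 to 10 CPM had a median of 105 counts per library, and their within-group SD had a median of 2.33 on the log2 scale in wild-type and 1.45 in heterozygous libraries. The gene just above the 100 CPM line, at a mean of 100.1 CPM, had a fitted value of 0.36, and the gene just under it, at 99.97 CPM, one of 0.09. Over all genes tested, 2433 (17.4%) were held within 2-fold.

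**Figure D2:**
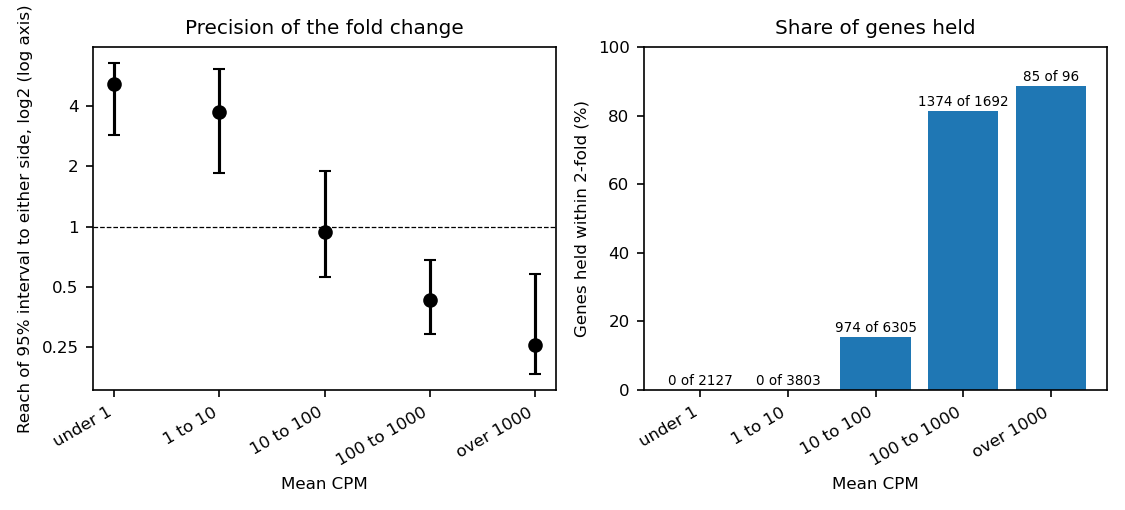
Left, how far the 95% interval of the log2 fold change reaches to either side (log axis) by class of mean CPM, with points at the median and bars from the 10th to the 90th percentile of genes; the dashed line is 2-fold. Right, the percentage of genes held within 2-fold, with counts above the bars, which rises from 0 of 2127 under 1 CPM to 85 of 96 over 1000 CPM. The 662 genes with 0 counts in all libraries of a genotype have no interval.

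At the narrower margin of 1.5-fold, 21 abundant genes were held (1.17%), which is 0.150% of all genes tested. They included Csf1r, the receptor for the growth factors on which macrophages depend, the complement genes C1qa, C1qb and C1qc, the lysosomal genes Ctsb, Asah1 and Grn, the iron store Fth1 and the MHC class I light chain B2m. Csf1r was at 9368, 10674 and 11500.2 CPM in wild-type and 10871, 10522 and 10849.5 CPM in heterozygous libraries. Its fold change was 0.03 (SE 0.07, 95% interval -0.13 to 0.19), the groups overlapped, and the 3 heterozygous values lay inside the wild-type range. Asah1, the lysosomal acid ceramidase, had the narrowest interval of all abundant genes and was at 1429, 1492 and 1545 CPM in wild-type and 1500.5, 1544 and 1479 CPM in heterozygous libraries, with a fold change of 0.02 (SE 0.07, 95% interval -0.13 to 0.17). C1qa was at 5871, 6018 and 5840.3 CPM in wild-type and 6228, 5559.6 and 6444 CPM in heterozygous libraries, a fold change of 0.04 (SE 0.07, 95% interval -0.13 to 0.21). The count of 21 changed with the fit: it was 0 on the 6 libraries alone, 5 without wild-type replicate 1, 7 without homozygous replicate 3 and 0 without any other single library, and with DESeq2 it was 811.

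Of the 20 genes with the most counts, 18 were held within 2-fold. Apoe, a lipid carrier, took the most counts and was at 32555, 39740.0 and 36539 CPM in wild-type and 45542, 45359 and 31516 CPM in heterozygous libraries. Its fold change was 0.17 (SE 0.14, 95% interval -0.14 to 0.48), and replicate 4 was the lowest of the 6 libraries. Ctsb, a lysosomal protease, was at 9745, 11242 and 12049 CPM in wild-type and 12205, 11367 and 10543 CPM in heterozygous libraries, with 0.05 (SE 0.09, 95% interval -0.15 to 0.24). Tmsb4x and Actb, of the actin cytoskeleton, had fold changes of -0.11 (SE 0.09) and -0.05 (SE 0.10). Lyz2, the lysozyme of macrophages, had 0.13 (SE 0.14), Cst3, a protease inhibitor, 0.08 (SE 0.12), Selenop, a selenium carrier, 0.02 (SE 0.11), and Itm2b, a membrane protein, -0.05 (SE 0.07). The 2 that were not held, Cd74 and H2-Ab1, belong to MHC class II presentation and are described below.

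**Figure D3:**
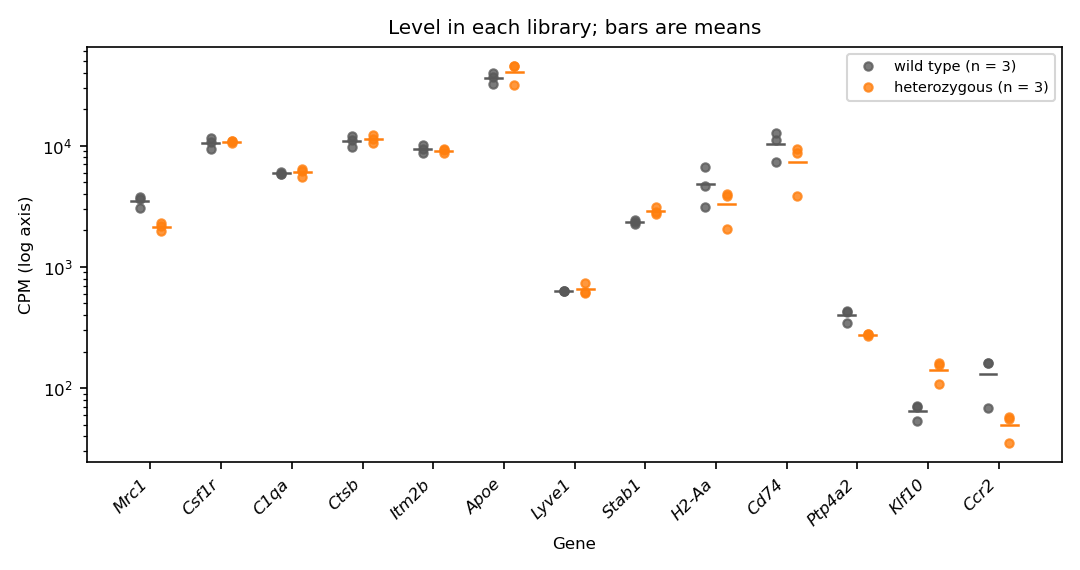
CPM (log axis) of 13 genes in each of 3 wild-type (grey) and 3 heterozygous (orange) libraries, with bars at the group means. Mrc1, Ptp4a2, Klf10, Stab1 and Ccr2 show no overlap between the groups, and the 3 heterozygous Csf1r values lie inside the wild-type range.

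Genes that define border macrophages were held in 21 of 25 cases, all of them abundant, with a median fold change of 0.04. That share of 84% is near the 81.6% of all abundant genes. An unadjusted p under 0.05 was reached by 4 markers on the higher and 1 on the lower side, beside 6.49% of all abundant genes. The libraries of the genotypes did not overlap for 7, with 5 higher and 2 lower in heterozygous mice. Over all abundant genes these shares were 4.36% higher and 5.59% lower. Mrc1, the chemokine Ccl8 and the lectin Siglec1 were among the 4 that were not held. Lyve1, a hyaluronan receptor of border macrophages, was at 628, 628 and 638 CPM in wild-type and 743, 609 and 625 CPM in heterozygous libraries, with 0.06 (SE 0.10, 95% interval -0.17 to 0.29). The 3 wild-type values lay within 10 CPM of each other and 2 of the heterozygous values lay below them. Stab1, a scavenger receptor that clears modified proteins, was at 2264, 2346 and 2438 CPM in wild-type and 2717, 2833 and 3114 CPM in heterozygous libraries. All 3 heterozygous libraries were above the wild-type ones, with a fold change of 0.30 (SE 0.08, 95% interval 0.11 to 0.48) that was held within 2-fold. Pf4, a chemokine, stood likewise above in all 3 libraries, with 0.25 (SE 0.08, 95% interval 0.06 to 0.43), and Cd163, the haemoglobin scavenger receptor, had 0.31 (SE 0.14, 95% interval 0.00 to 0.61). Neither difference was called (edgeR adjusted p = 0.79 for each). Dab2, an endocytic adaptor, had -0.01 (SE 0.11, 95% interval -0.25 to 0.23).

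General macrophage markers were held in 22 of 22 cases, 21 of them abundant, with a median of 0.04 over the list. Fcer1g, the signalling chain of Fc receptors, had a fold change of 0.09 (SE 0.10). Irf8, a transcription factor that maintains macrophages, lay lower in all 3 heterozygous libraries, at 469.9, 484 and 507 CPM in wild-type and 428, 354 and 367 CPM in heterozygous libraries. Its fold change of -0.35 (SE 0.14, 95% interval -0.65 to -0.04) was held within 2-fold and not called (edgeR adjusted p = 0.79). Genes known from microglia were measured less tightly: 6 of 11 abundant ones were held, and their within-group SD had a median of 0.57 on the log2 scale in wild-type and 0.36 in heterozygous libraries. Fcrls and P2ry13 had 0.08 (SE 0.11, 95% interval -0.16 to 0.33) and 0.14 (SE 0.20, 95% interval -0.32 to 0.59), both held.

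Genes of lysosomal degradation had a median interval reach of 0.30 on the log2 scale, beside 0.42 over all abundant genes. Of 39 abundant lysosomal enzyme genes 38 were held, with a median of 0.05, and of 15 abundant vacuolar ATPase genes, whose pump acidifies the lysosome, 14 were held, with a median of 0.06. The pump subunit not held was Atp6v1a. Ctsd, an aspartic protease, was at 3194, 4865 and 5938 CPM in wild-type and 4366, 5047 and 4351 CPM in heterozygous libraries, with -0.02 (SE 0.18, 95% interval -0.42 to 0.37), and Ctsc and Ctss, which are cysteine proteases, had -0.07 (SE 0.13) and -0.10 (SE 0.13). Atp6ap1 had 0.09 (SE 0.14, 95% interval -0.22 to 0.41). Endocytic lectins and scavenger receptors, a list that contains Mrc1, were held in 15 of 22 abundant cases, to be read beside 81.6% of all abundant genes. For none of the 26 tested did edgeR call a difference, and their median was 0.01.

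Complement genes and their receptors were held in 11 of 11 abundant cases and Fc receptors in 6 of 6. Toll-like receptors with their adaptors were held in 10 of 10, but in 6 without heterozygous or wild-type replicate 2. Over all abundant genes the share was 81.6% in the stated fit. Without heterozygous replicate 2 it was 1169 of 1794 genes, and without wild-type replicate 2 it was 1210 of 1774. C3ar1, a receptor for a complement fragment, had -0.14 (SE 0.10, 95% interval -0.37 to 0.08). Fcgr3, an activating receptor for antibody, had 0.04 (SE 0.10, 95% interval -0.18 to 0.26), and Fcgrt, the neonatal Fc receptor, 0.23 (SE 0.15, 95% interval -0.10 to 0.57). Unc93b1, which carries Toll-like receptors to endosomes, had -0.10 (SE 0.11, 95% interval -0.36 to 0.15). Tlr2, a receptor for bacterial lipopeptides, was at 572, 483 and 639 CPM in wild-type and 482, 656 and 408 CPM in heterozygous libraries, a fold change of -0.13 (SE 0.18, 95% interval -0.53 to 0.27). Tlr13, which recognises bacterial ribosomal RNA, had -0.37 (SE 0.19, 95% interval -0.79 to 0.05) and was not held under 4 of 21 alternatives.

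Of the abundant genes of lipid handling 11 of 14 were held, near the 81.6% of all abundant genes. For iron and haem handling it was 11 of 12, and for MHC class I presentation 13 of 14. Leaving out wild-type replicate 3 or heterozygous replicate 1 brought the lipid count to 7, and leaving out heterozygous replicate 4 brought the iron count to 7. Lrp1 and Sqle were among those not held in the first list, and the members not held were Lrp1 in the second and Tap1, a peptide transporter, in the last. Npc2 and Trem2, a cholesterol transporter and a lipid receptor, had 0.12 (SE 0.11) and 0.16 (SE 0.15). Fth1 and Ftl1, the chains of ferritin, had 0.02 (SE 0.08) and 0.05 (SE 0.11), and Trf, transferrin, 0.02 (SE 0.12). B2m was at 4087, 3715 and 3714 CPM in wild-type and 3639, 3751 and 3699.7 CPM in heterozygous libraries, with -0.05 (SE 0.09, 95% interval -0.25 to 0.14). The class I heavy chains H2-K1 and H2-D1 had -0.12 (SE 0.08, 95% interval -0.30 to 0.05) and -0.10 (SE 0.11, 95% interval -0.35 to 0.15).

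Macrophage transcription factors were held in 14 of 17 abundant cases, near the 81.6% of all abundant genes, with Cebpd and Klf2 among those not held. Their count was 9 without heterozygous replicate 1, heterozygous replicate 2 or wild-type replicate 2. Growth factor receptors were held in 17 of 18 cases. Maf, a transcription factor of resident macrophages, was at 771, 576 and 466 CPM in wild-type and 518, 669 and 640.0 CPM in heterozygous libraries, with 0.01 (SE 0.18, 95% interval -0.38 to 0.41). Mef2c lay lower in all 3 heterozygous libraries, at 667, 674 and 694 CPM in wild-type and 544, 607 and 572 CPM in heterozygous libraries, and its fold change of -0.24 (SE 0.09, 95% interval -0.44 to -0.04) was held. Tgfbr2 and Ifngr1, receptors for TGF-beta and interferon gamma, had 0.04 (SE 0.12, 95% interval -0.23 to 0.31) and -0.13 (SE 0.14, 95% interval -0.44 to 0.18). The receptor that was not held was Axl, which binds dying cells through Gas6. It was at 847, 651 and 1397 CPM in wild-type and 702, 462 and 653 CPM in heterozygous libraries, where wild-type replicate 3 was the highest, with a fold change of -0.67 (SE 0.31, 95% interval -1.36 to 0.02).

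Nuclear genes of the respiratory chain were held in 32 of 32 abundant cases (53 of 59 tested), with Atp5b at 0.08 (SE 0.13, 95% interval -0.21 to 0.38), Cox4i1 at 0.11 (SE 0.12, 95% interval -0.16 to 0.39) and Sdha at -0.01 (SE 0.15, 95% interval -0.35 to 0.32). Proteasome subunits were held in 20 of 23 abundant cases and actin cytoskeleton genes in 20 of 23, beside 81.6% of all abundant genes. Of 34 proteasome subunits tested, 2 had an unadjusted p under 0.05, both lower, beside 2.40% of all genes tested. All heterozygous libraries lay below all wild-type libraries for 5 of the 34 and above them for 1. Over all genes tested these shares were 4.16% and 5.43%. The proteasome genes not held, Psmd1, Psmc5 and Psmd6, all belong to the regulatory particle and were fitted below 0, but none passed the test of a difference. Psma7, of the proteasome core, had -0.01 (SE 0.12, 95% interval -0.28 to 0.26), and Pfn1 and Capza2, which regulate actin filaments, -0.07 (SE 0.10) and -0.01 (SE 0.10). Translation factors were held in 13 of 16 abundant cases, in 5 without heterozygous replicate 2, and in 7 without heterozygous replicate 4, without wild-type replicate 1 or 2, or on the 6 libraries alone. Eef2, which moves the ribosome along the message, was at 462, 426 and 439 CPM in wild-type and 429, 436 and 415 CPM in heterozygous libraries, with -0.05 (SE 0.13, 95% interval -0.34 to 0.24).

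Cytosolic ribosomal protein genes had fitted values mostly above 0. Of 54 abundant members 50 were held within 2-fold, but 30 without heterozygous replicate 1, 32 without wild-type replicate 1 and 31 under the replicate block, and 74 of 79 tested were fitted above 0, with a median of 0.21, beside a median of 0.01 over all genes tested. None was called, and none reached an unadjusted p under 0.05. Rps9 was at 529, 431 and 418 CPM in wild-type and 495, 586 and 483 CPM in heterozygous libraries, with 0.18 (SE 0.16, 95% interval -0.17 to 0.54), and Rpl13 at 523, 355 and 439.7 CPM in wild-type and 501, 546 and 479 CPM in heterozygous libraries, with 0.21 (SE 0.16, 95% interval -0.15 to 0.57). Heterozygous replicate 2 was the highest for both. Without it the list's median was 0.07 with 20 fitted below 0, and without wild-type replicate 1 it was 0.31, without wild-type replicate 2 it was 0.13 and without wild-type replicate 3 also 0.13. The 10 tested genes of the mitochondrial genome were all fitted above 0, with a median of 0.21, and 5 of 8 abundant ones were held. Without wild-type replicate 1 none was held, and without heterozygous replicate 1 there was 1. There were 3 without heterozygous replicate 4, without wild-type replicate 2 or on the 6 libraries alone, 2 under the replicate block and 8 with DESeq2. The median moved with each of the 6 libraries. It was 0.43 without wild-type replicate 1, 0.13 without replicate 2 and 0.06 without replicate 3, and 0.38, 0.05 and 0.11 without heterozygous replicates 1, 2 and 4, with 6 to 10 of the 10 genes above 0. mt-Rnr2, a ribosomal RNA, was at 2111, 1398 and 1372 CPM in wild-type and 1207, 2554 and 2320.0 CPM in heterozygous libraries, where heterozygous replicates 2 and 4 were the highest and replicate 1 the lowest of the 6.

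Genes of antigen presentation by MHC class II were measured less precisely. Of the abundant members, 4 of 9 were held, 12 of 13 tested were fitted below 0, and the median was -0.50, but none was called and none reached an unadjusted p under 0.05. Cd74, the invariant chain, was at 12691, 11062 and 7317 CPM in wild-type and 9445, 3864 and 8634 CPM in heterozygous libraries. H2-Aa, which encodes the class II alpha chain, was at 6656, 4687 and 3101 CPM in wild-type and 3997, 2055 and 3833 CPM in heterozygous libraries. Heterozygous replicate 2 was the lowest of the 6 for both genes, and the groups overlapped. The fold changes were -0.50 (SE 0.45, 95% interval -1.50 to 0.50) and -0.55 (SE 0.47, 95% interval -1.60 to 0.51), and H2-Ab1 and H2-Eb1, the beta chains, had -0.54 (SE 0.50, 95% interval -1.65 to 0.57) and -0.53 (SE 0.56, 95% interval -1.77 to 0.72). Without heterozygous replicate 2 the list's median was -0.24. The median within-group SD of the abundant members was 0.32 in wild-type and 0.54 in heterozygous libraries on the log2 scale, against 0.26 and 0.21 over all abundant genes.

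Interferon-stimulated genes also varied between libraries of a genotype, with a median SD of 0.37 in wild-type and 0.53 in heterozygous libraries. Of 10 abundant members 4 were held, and 2 on the 6 libraries alone, under the replicate block or without heterozygous replicate 1 or 4 or wild-type replicate 2 or 3. In the stated fit 24 of 30 tested were fitted below 0, and the median was -0.42, with 0 called and 0 at an unadjusted p under 0.05. The direction rested on 1 library: without wild-type replicate 1 the median was 0.09 and 13 of 30 were below 0. Irf7, a transcription factor of the interferon response, was at 273, 95.8 and 159 CPM in wild-type and 89.1, 46.2 and 209.7 CPM in heterozygous libraries. Oasl2, an antiviral protein, was at 424, 315 and 244 CPM in wild-type and 229.9, 144 and 255 CPM in heterozygous libraries, with -0.65 (SE 0.33, 95% interval -1.37 to 0.08). Bst2, which tethers viruses to the cell surface, had a narrower interval and was held, at -0.15 (SE 0.13, 95% interval -0.44 to 0.15). Of 8 abundant inflammatory cytokines and chemokines 3 were held, and 5 with DESeq2. Ccl6, a chemokine, lay lower in all 3 heterozygous libraries, at 290.2, 436 and 291 CPM in wild-type and 245, 209.9 and 229 CPM in heterozygous libraries, with -0.57 (SE 0.22, 95% interval -1.07 to -0.08) (edgeR adjusted p = 0.79). Ccl7, a monocyte attractant, had 0.79 (SE 0.59, 95% interval -0.51 to 2.09), among the widest intervals of the abundant genes.

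**Figure D4:**
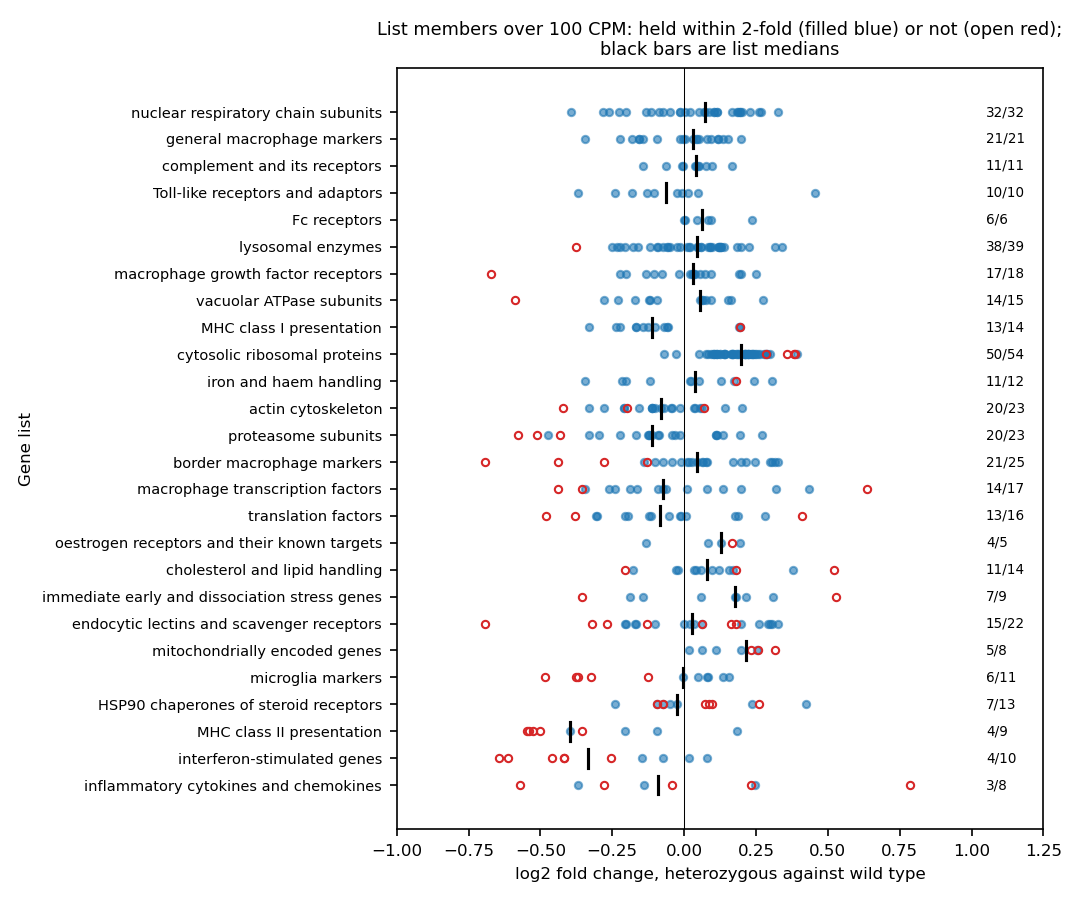
log2 fold change of heterozygous against wild type for each list member over 100 CPM, in lists with at least 5 such members, filled blue where held within 2-fold and open red where not; black bars are list medians and the numbers at the right give members held over members shown. Nuclear respiratory chain genes (32/32), general macrophage markers (21/21) and complement (11/11) are all held, while MHC class II presentation (4/9) and inflammatory cytokines (3/8) are not.

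Lists of known partners and targets of steroid receptors were read for CreERT2. HSP90 and its partner chaperones, which bind steroid receptors, were held in 7 of 13 abundant cases, beside 81.6% of all abundant genes, with a median of -0.05 over 21 tested. The count was 2 without heterozygous or wild-type replicate 2, 3 without replicate 1 of either genotype or wild-type replicate 3, and 4 without heterozygous replicate 4 or on the 6 libraries alone. It was 11 with DESeq2 and 12 with the title letter as a covariate. Hsp90ab1, the constitutive HSP90, was at 1206, 844 and 753 CPM in wild-type and 1156, 936 and 618 CPM in heterozygous libraries, with -0.05 (SE 0.26, 95% interval -0.62 to 0.52), held in the stated fit but not under 4 of 21 alternatives. Hspa8, a constitutive HSP70, was at 1809, 1573 and 791 CPM in wild-type and 1959, 1633 and 838 CPM in heterozygous libraries. In both genotypes replicate 1 was the highest and the f-lettered library the lowest, and the fold change of 0.09 (SE 0.44, 95% interval -0.90 to 1.07) changed sign when single libraries were left out. Known targets of the oestrogen receptor were held in 4 of 5 abundant cases, and in 2 without heterozygous replicate 2 or 4 or wild-type replicate 2 or 3. Igfbp4, which binds insulin-like growth factors, had 0.20 (SE 0.18, 95% interval -0.21 to 0.60), and Nrip1, a receptor corepressor, 0.13 (SE 0.16, 95% interval -0.22 to 0.47). Of 31 tested p53 target and DNA damage genes, 3 were abundant and all 3 were held, among them Sesn1, a stress-induced inhibitor of growth signalling, at -0.05 (SE 0.14, 95% interval -0.36 to 0.27). None of the 27 tested cell cycle genes was abundant or held, so a change in cycling of moderate size was not detectable.

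Among the abundant genes that were not held, imprecision was more common than a large fitted change. There were 329 such genes, of which 133 had a fitted value within 1.25-fold and 42 one beyond 1.5-fold, and 191 were fitted below 0. Ccn1, a matrix protein of the immediate early class, had the widest interval of the abundant genes. It was at 33.4, 141 and 38.0 CPM in wild-type and 142, 60.6 and 235 CPM in heterozygous libraries, with 1.04 (SE 0.67, 95% interval -0.45 to 2.53). Sparc, a matrix protein that microglia make, was at 113, 262 and 619.8 CPM in wild-type and 132, 248 and 329 CPM in heterozygous libraries, where wild-type replicate 3 was the highest, and its fold change was -0.49 (SE 0.65, 95% interval -1.92 to 0.95). Dnaja1, a co-chaperone, had -0.07 (SE 0.60, 95% interval -1.41 to 1.26). For Sparc and Dnaja1 the sign of the fitted value turned under some alternatives.

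The abundant genes with the smallest p after Mrc1 did not pass the threshold in edgeR (adjusted p = 0.66 to 0.79). Klf10, a TGF-beta-induced transcription factor, was at 69.5, 70.6 and 53.3 CPM in wild-type and 108, 161 and 156 CPM in heterozygous libraries. Each heterozygous library was above each wild-type library, and the fold change was 1.14 (SE 0.25, 95% interval 0.58 to 1.70). Ptp4a2, a phosphatase, was at 435, 347 and 425 CPM in wild-type and 279, 278 and 268 CPM in heterozygous libraries, with no overlap and -0.55 (SE 0.13, 95% interval -0.83 to -0.27), and it was held within 2-fold except under 4 of 21 alternatives. Abhd4, a lipid hydrolase, and Gatm, an enzyme of creatine synthesis, had -0.70 (SE 0.19, 95% interval -1.12 to -0.28) and -0.59 (SE 0.16, 95% interval -0.95 to -0.23). Iqgap2, a scaffold protein, had -0.89 (SE 0.26, 95% interval -1.47 to -0.32). On the higher side, Ninj1, which ruptures the membrane of dying cells, had 0.50 (SE 0.12, 95% interval 0.23 to 0.77), Npl, an enzyme of sialic acid breakdown, 0.52 (SE 0.13, 95% interval 0.24 to 0.80), and Sf1, a splicing factor, 0.59 (SE 0.14, 95% interval 0.29 to 0.89). These 3 were held within 2-fold, Ninj1 except under 1 of 21 alternatives, Npl except under 3 and Sf1 except under 10. The uncharacterised 2510039O18Rik had 0.60 (SE 0.16, 95% interval 0.25 to 0.96). DESeq2 called Klf10, Abhd4 and Gatm (adjusted p = 0.0064, 0.040 and 0.021), and also Ptp4a2, Sf1, Ninj1 and Npl (0.0025, 0.0096, 0.023 and 0.025), which with Mrc1 are its 8 abundant calls.

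Over all genes, the smallest p on the higher side was that of Gja1, the gap junction gene connexin 43. It had 0 counts in the 3 wild-type libraries and was at 9.52, 13.5 and 8.89 CPM in the heterozygous ones, at least 340-fold higher against a floor of 3 counts over the wild-type group (edgeR adjusted p = 0.18). Kptn, which acts in a complex that restrains growth signalling, showed the reverse, at 11.9, 13.4 and 23.5 CPM in wild-type and 0 counts in heterozygous libraries, at least 478-fold lower on the same floor (edgeR adjusted p = 0.18). Counting error is all that these bounds cover. Frmd6, an upstream part of the Hippo pathway, was at 47.2, 31.5 and 34.3 CPM in wild-type and 10.6, 11.1 and 8.46 CPM in heterozygous libraries, with no overlap and -1.91 (SE 0.29, 95% interval -2.54 to -1.27) (edgeR adjusted p = 0.28). Unc45a, a myosin chaperone, had -2.22 (SE 0.39, 95% interval -3.08 to -1.35), Ubr2, a ubiquitin ligase, 1.10 (SE 0.22, 95% interval 0.62 to 1.58), and Ap5b1, of an adaptor complex, 1.53 (SE 0.33, 95% interval 0.80 to 2.25), each without overlap between the groups (edgeR adjusted p = 0.52, 0.63 and 0.66). DESeq2 called Frmd6 (adjusted p = 4.23e-07), Unc45a (2.34e-05), Ubr2 (0.0010) and Ap5b1 (0.0033). Over all genes tested, the heterozygous libraries lay above all wild-type libraries in 762 cases (5.43%) and below them in 584 (4.16%).

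Genes that differed in homozygous mice were read in the heterozygous libraries. With both copies modified, edgeR called 3 genes higher (0.0214%) and 6 lower (0.0428%) than wild type. The same wild-type libraries served both comparisons, so the values are given side by side. Ccr2, the chemokine receptor of monocytes, was at 68.0, 161 and 159.7 CPM in wild-type and 57.9, 56.0 and 35.1 CPM in heterozygous libraries, with a fold change of -1.38 (SE 0.35, 95% interval -2.16 to -0.60) in heterozygous and -4.18 (SE 0.33) in homozygous mice. The heterozygous and wild-type libraries did not overlap, and the heterozygous difference missed the threshold in edgeR (adjusted p = 0.71) and passed it in DESeq2 (adjusted p = 0.016). Its sum with the other monocyte markers was 62.5 to 91.5 CPM in heterozygous and 84.2 to 219 CPM in wild-type libraries, of which Ccr2 made up most, and the part of such cells in the result was not tested. Slamf9, a receptor of the SLAM family, had -1.07 (SE 0.32, 95% interval -1.77 to -0.36) against -2.29 (SE 0.30), and Cd52, a surface glycoprotein of leukocytes, -0.61 (SE 0.19, 95% interval -1.02 to -0.19) against -1.39 (SE 0.17). Coro1a, an actin regulator, had -0.42 (SE 0.22, 95% interval -0.90 to 0.06) against -1.52 (SE 0.20).

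In contrast, 3 of these genes were held within 2-fold in heterozygous mice. Lyve1, described above, had a homozygous fold change of 0.85 (SE 0.10) beside the heterozygous 0.06, and the homozygous libraries differed from the heterozygous ones (edgeR adjusted p = 0.042). Hgsnat, a lysosomal acetyltransferase, was at 785, 795 and 852 CPM in wild-type and 828, 913 and 1106 CPM in heterozygous libraries, with 0.23 (SE 0.12, 95% interval -0.04 to 0.49) against 0.87 (SE 0.11). Clec12a, an inhibitory lectin, was at 255, 158 and 221 CPM in wild-type and 189.7, 193 and 168 CPM in heterozygous libraries, with -0.20 (SE 0.19, 95% interval -0.62 to 0.21) against -1.22 (SE 0.17). For Hgsnat and Clec12a the difference between homozygous and heterozygous libraries did not pass (edgeR adjusted p = 0.26 for each). It passed for Mrc1 (adjusted p = 1.76e-05) and Ccr2 (0.042), and not for Slamf9, Cd52 or Coro1a (0.74, 0.62 and 0.30). Gja1 was detected in both genotypes that carry the allele. Kptn and Frmd6, lower in heterozygous libraries, had means of 12.1 and 32.6 CPM in homozygous and 16.3 and 37.7 CPM in wild-type libraries. Unc45a, also lower in heterozygous libraries, had means of 16.6 and 35.9 CPM in the same order. Ubr2 and Ap5b1, higher in heterozygous libraries, had means of 67.9 and 38.8 CPM in homozygous and 28.7 and 23.8 CPM in wild-type libraries. Of these genes, edgeR called only Gja1 in homozygous mice.

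**Figure D5:**
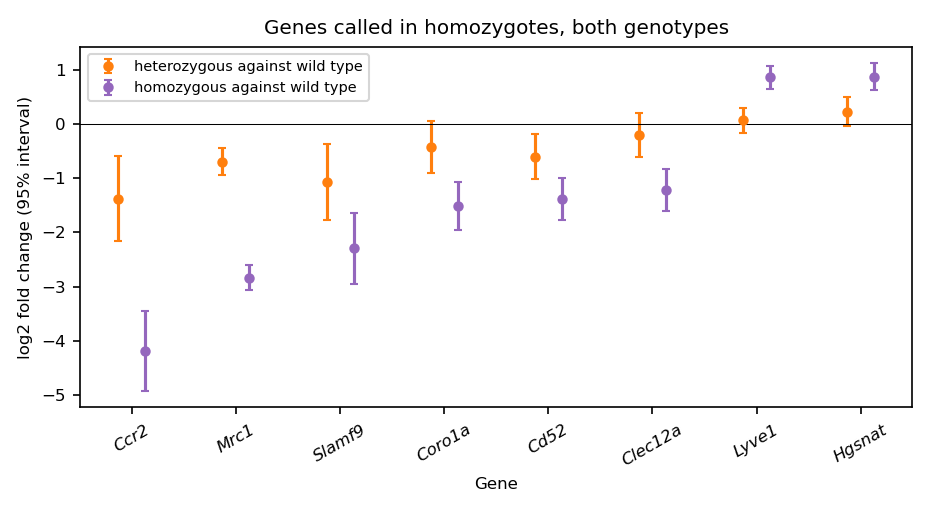
log2 fold change against wild type, with 95% intervals, of 8 genes called in homozygous mice, for heterozygous (orange) and homozygous (purple) libraries. The heterozygous value of Mrc1 is -0.69 and its homozygous value -2.83, while for Lyve1 the heterozygous interval spans 0. Gja1 is left out because it has no counts in wild-type libraries.

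The genes next to Mrc1 on its chromosome were followed as a check of the surroundings of the allele. Of the 8 nearest protein-coding genes on each side in the RefSeq gene order, 11 of 16 had enough counts to be tested, 0 were called and 0 reached an unadjusted p under 0.05. Rsu1, a regulator of cell adhesion, was at 177, 148 and 179 CPM in wild-type and 156, 161 and 87.0 CPM in heterozygous libraries, with -0.32 (SE 0.22, 95% interval -0.80 to 0.17). It was the 1 neighbour held within 2-fold, though not under 9 of 21 alternatives, and heterozygous replicate 4 was the lowest. Vim, an intermediate filament gene, had -0.66 (SE 0.58, 95% interval -1.95 to 0.62) and Stam, an endosomal sorting gene, -0.18 (SE 0.40, 95% interval -1.07 to 0.70). Plxdc2, a transmembrane receptor, had -0.31 (SE 0.50, 95% interval -1.41 to 0.79), which turned to 0.61 without wild-type replicate 3. Of the 11 tested neighbours 9 were fitted below 0, beside 49.1% of all genes tested. Trdmt1, St8sia6, Tmem236, Hacd1 and Slc39a12 had means of 0.48 to 7.58 CPM, an SE of 1.74 to 3.31 and no counts in some libraries. Their signs are therefore uncertain. Among them, Hacd1 and Slc39a12 were fitted above 0.

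Of the neutrophil markers, S100a8, Ly6g, Retnlg, Ltf and Mmp8 had 0 counts in the 6 libraries. S100a9, Cxcr2, Ngp and Camp had counts in some libraries, up to 1.19, 4.27, 0.034 and 0.043 CPM. The endothelial markers Cldn5, Esam, Tek and Slco1a4 had 0 counts, while the others had counts in some libraries, up to 15.6 CPM for Kdr and 37.5 CPM for Ly6a. The neutrophil sum of 314 to 426 CPM in wild-type and 292 to 542 CPM in heterozygous libraries came mainly from Mmp9 and Csf3r. Summed T and NK cell markers were at 177 to 212 CPM in wild-type and 135 to 174 in heterozygous libraries, oligodendrocyte markers at 270 to 336 and 193 to 254, and endothelial markers at 13.7 to 45.1 and 1.55 to 6.41, each without overlap. These were sums only: none of the 10, 6 and 4 tested members of these lists was without overlap by itself. Cd4, the largest T and NK member, was at 70.8, 188 and 137 CPM in wild-type and 127, 109 and 91.2 CPM in heterozygous libraries. B cell markers were at 623 to 960 and 612 to 651 CPM. Of the 9 tested, 5 had an unadjusted p under 0.05, with Ighm at -0.59 (SE 0.22, 95% interval -1.08 to -0.10), Cd22 at -1.11 (SE 0.32, 95% interval -1.83 to -0.39) and Bank1 at 0.55 (SE 0.21, 95% interval 0.09 to 1.02), while Pax5 and Jchain had 0 counts throughout. Choroid plexus markers stood at 541 CPM in wild-type replicate 1 and 194 CPM in heterozygous replicate 4 and 1.65 to 11.97 CPM elsewhere. Red cell markers stood at 192 CPM in wild-type replicate 3 and 127 CPM in heterozygous replicate 4 and 0.092 to 6.12 CPM elsewhere. Microglia markers were at 17992 to 27803 and 19948 to 22981 CPM. The part of such cells in the values above was not tested.

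Titles carry an m or an f, which fitted Xist and Y-linked counts in 10 of 10 libraries, and each genotype compared here held 1 f library. A fit of the difference in the effect of the allele between the letters has 1 f library in each of the 2 genotypes. It assumes that this library varies like the others, so only effect sizes are given. On the log2 scale, f minus m, it was -0.54 for Apoe, -0.46 for Lyz2 and -0.20 for Tmsb4x. For Ctsb, Csf1r and Actb, next in abundance, it was -0.36, -0.18 and 0.39, and for Mrc1 0.04. Mrc1 was lower by a log2 difference of -0.70 in m and -0.67 in f libraries.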

How the data were processed

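The authors deposited whole-number read counts per gene symbol for 10 libraries, made from SMARTer-amplified RNA with Nextera XT in a single batch, per the labels. The submitters' processing notes name featureCounts 2.0.2, STAR 2.7.8a and bcl2fastq 2.20. They give no build, annotation or strand setting, so reads of overlapping genes, antisense genes and near-identical copies (ribosomal proteins, class I genes) cannot be told apart. The RefSeq promoter and gene order come from GRCm38.p6.

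Genes were filtered with filterByExpr by genotype (minimum count 10, total 15), which left 14023 genes with 99.9% of counts, and scaled by TMM. edgeR 4.0.16 (R 4.3.3) quasi-likelihood fits used all 10 libraries, with genotype as the only term and robust estimation. Benjamini-Hochberg adjustment ran over all genes tested, with calls at 0.05. Kept levels were tested with 2 one-sided tests against 2-fold and 1.5-fold, using the standard error from the same fit. A gene with 0 counts in all libraries of a group has no such error and was never held. Bounds against a floor of 3 counts cover counting error only. Alternatives used DESeq2 1.42.0, limma 3.58.1 (voom), other scaling and filters, covariates and left-out libraries. Figures were drawn with matplotlib 3.10.9.

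Members and gene lists were chosen with earlier results of these data known. Named genes were Mrc1 and Esr1, the 20 with most counts, those with the narrowest or widest intervals or smallest p, those called in homozygotes, up to 4 most abundant members per list and the neighbours of Mrc1. Any other gene (the exceptions within lists, and marker genes with 0 or few counts) was named after its values were seen. Some genes that the rule takes in are not reported here.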

Additional observations from a re-analysis of the deposited data

Results flagged for a closer look

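Gja1 was detected in the homozygous libraries at 13.5, 12.6, 3.78 and 12.1 CPM for replicates 1 to 4. Homozygous replicate 3 lay apart from the others, with a gap to the nearest value that made up 0.861 of the range of the group. Chance gives such a gap in about 1 of 20 groups of normally spread values. Whether this low-count gene spreads so was not tested, and the gap was flagged from these same values. The gene had 0 counts in all 3 wild-type libraries. The values of the heterozygous libraries, which do not enter this gap, are given with the comparison.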

How the results depend on the processing

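The absence of calls held under 20 of 21 alternatives. DESeq2 called 144 genes higher and 92 lower, 8 of them abundant, and Mrc1 at a log2 fold change of -0.71. Mrc1 lay between -0.78 and -0.64 when single libraries were left out. Genes at an unadjusted p under 0.05 numbered 411 with only the 6 libraries compared. Abundant genes held within 1.5-fold numbered 10 without a count filter, 52 with limma-voom, 45 with the title letter as a covariate, 811 with DESeq2 (873 over all genes), and 0 without robust estimation, with only the 6 libraries or with the replicate block. They numbered 0 to 7 when single libraries were left out. Genes held within 2-fold numbered 1649 with only the 6 libraries, 1243 of them abundant, and 1509 with the replicate block, 1195 of them abundant. With single libraries left out, 1456 to 2280 genes were held within 2-fold. They were lowest without heterozygous replicates 1, 2 or 4 (1456, 1496 and 1616). Why the counts moved was not tested beyond the smaller number of libraries or genes in some fits. Of 81 genes named as held within 2-fold, 72 were held under every alternative. The fitted value of Dnaja1 was 0.086 with limma-voom, 0.13 under the replicate block and -0.41 to 0.62 when single libraries were left out. That of Sparc was 0.086 under the replicate block and -0.90 to 0.34 when single libraries were left out. That of Plxdc2 was 0.28 under the replicate block and -0.70 to 0.61 when single libraries were left out, above 0 without wild-type replicate 3. In the same way that of Hspa8 ran from -0.19 to 0.36, with the sign turned without heterozygous replicate 1 or wild-type replicate 3. The replicate block paired 2 numbers shared by the titles. Same-numbered libraries did not deviate together (correlations across genes of -0.0049 and -0.057). Libraries of different numbers had correlations from -0.086 to 0.099. The labels do not say what the numbers mean, and 2 correlations cannot decide whether they pair the mice.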

Other observations

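Immediate early and dissociation stress genes, which rise when tissue is taken apart, were held within 2-fold in 7 of 9 abundant cases, with a median of 0.15 over 24 tested. Klf6, a zinc-finger transcription factor of this class, was at 477, 536 and 385.8 CPM in wild-type and 411, 396 and 422 CPM in heterozygous libraries. Its fold change was -0.19 (SE 0.12, 95% interval -0.46 to 0.09), and the groups overlapped. Glul, glutamine synthetase, a gene of astrocytes that macrophages also transcribe, was at 216, 251 and 270.1 CPM in wild-type and 251, 207 and 309.7 CPM in heterozygous libraries, with 0.06 (SE 0.17, 95% interval -0.32 to 0.44). It was the only tested astrocyte marker over 100 CPM. Pdia3, a chaperone that loads peptides on MHC class I, was at 999, 1209.7 and 1726 CPM in wild-type and 1124, 984 and 1231 CPM in heterozygous libraries, with wild-type replicate 3 the highest, a fold change of -0.24 (SE 0.18, 95% interval -0.64 to 0.17), and it was held within 2-fold. Psmb8, a subunit of the immunoproteasome, was held at -0.22 (SE 0.14, 95% interval -0.53 to 0.08), and Atp6v0b, of the vacuolar ATPase, lay above wild type in all 3 heterozygous libraries, with 0.27 (SE 0.11, 95% interval 0.02 to 0.53), and was held.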
